A study of Mus musculus with 24 samples.

Results

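Immediate early genes are transcribed within minutes of a stimulus from factors that are already present in the cell, and in neurons they are read widely as a trace of recent synaptic activity. Calcium entry and the MAP kinase cascade act on CREB at cyclic AMP response elements (CRE) and on serum response factor at CArG boxes. The products are mostly transcription factors (the FOS, JUN, EGR and NR4A families, NPAS4), together with synaptic effectors such as ARC and feedback inhibitors such as the dual-specificity phosphatases. Here the mRNA of 45 such genes, listed by name with earlier results of these data known, was followed among the 25793 gene symbols of the count tables. They were grouped by role into 8 AP-1 factors, 2 CREB/ATF family members, 7 EGR and NR4A factors, 8 other induced factors, 7 synaptic or secreted effectors, 8 feedback inhibitors and 5 genes of stress or growth arrest.

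RNA-seq was carried out on cerebellum (CB) and hippocampus (HC) of wild type (WT) mice and of 16GsoT/T mice, at postnatal day 14 (P14) and P35. Each of the 8 groups held 3 libraries, taken by their names as different animals. The library names do not show whether CB and HC libraries of an age and genotype came from the same mice. Tests across the regions treated them as separate. The 16Gso allele is a reciprocal translocation, T(5G2;8A1), that breaks chromosome 5 between *Auts2* and *Galnt17*, and 16GsoT/T mice carry it on both homologues. Library names give B6C3 for most WT mice, the background named in the methods, whereas the sample annotation gives C57BL/6 for all. The homozygotes were offspring of homozygous parents, so they were not littermates of the WT mice. The translocation is in all cells from conception. The animals were males per the study.

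The libraries held 2563968 to 40564789 reads on genes, with the fewest in P35 HC (2563968 to 4127478). Cerebellar markers summed to 8113 to 9637 counts per 1000000 reads on genes (CPM) in CB libraries and to 175 to 410 CPM in HC libraries, and hippocampal markers to 606 to 832 against 102 to 128 CPM, as the region labels say. Sequencing lane coincided with genotype in P14 HC, and single or dual indexing split the WT libraries of P35 HC. CB and HC were sequenced in separate lanes. Reads that the counting placed on no feature made up 20.6 to 22.5% of each P14 CB library and 48.9 to 51.9% of each of the others. Reads on genes made up 64.8 to 68.1% and 37.6 to 42.4%, respectively. No replicate pair agreed within counting noise. CPM values below were scaled by the TMM method over all 24 libraries, and the order of libraries in each list of values is WT1, WT2 and WT3 or T4, T5 and T6 in P14 CB, M27, M28 and M29 or C19, C20 and C21 in P35 CB, N4, N5 and N6 or A13, A14 and A18 in P14 HC, and N10, W481 and W483 or B10, B11 and B12 in P35 HC. In these bulk samples, a lower level from fewer cells of a type and one from less RNA per cell cannot be told apart.

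The promoters of 4 genes named in several comparisons below are shown. They are shown because all 4 hold the half-site of the CRE, written TGACG, to which CREB binds. Its presence in these 4 thus follows from the choice. Each line is the 250 bases before the RefSeq start of transcription in build GRCm38.p6, 5′ to 3′ on the strand of the gene, with the half-site in capitals on either strand. The first is *Fos*, a partner of JUN in AP-1, at chr12:85473640-85473889 (plus strand). *Egr4*, a zinc finger factor, is at chr6:85513590-85513839 (minus strand). The orphan nuclear receptor *Nr4a1* is at chr15:101266596-101266845 and its relative *Nr4a3* at chr4:48045055-48045304, both on the plus strand.
Fos: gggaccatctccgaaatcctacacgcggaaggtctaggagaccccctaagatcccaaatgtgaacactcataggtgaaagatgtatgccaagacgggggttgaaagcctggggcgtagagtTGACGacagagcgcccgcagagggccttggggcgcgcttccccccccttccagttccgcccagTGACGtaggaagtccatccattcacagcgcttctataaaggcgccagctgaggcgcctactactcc
Egr4: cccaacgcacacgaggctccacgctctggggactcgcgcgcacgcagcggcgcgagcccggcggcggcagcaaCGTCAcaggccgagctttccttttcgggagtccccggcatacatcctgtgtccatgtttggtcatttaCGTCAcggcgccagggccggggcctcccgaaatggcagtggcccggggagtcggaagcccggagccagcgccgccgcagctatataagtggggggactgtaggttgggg
Nr4a1: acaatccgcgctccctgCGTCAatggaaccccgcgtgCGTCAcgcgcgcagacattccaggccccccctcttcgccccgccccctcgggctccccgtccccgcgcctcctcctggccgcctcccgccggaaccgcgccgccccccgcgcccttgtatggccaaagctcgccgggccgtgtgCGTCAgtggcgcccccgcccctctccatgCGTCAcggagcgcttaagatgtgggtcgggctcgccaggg
Nr4a3: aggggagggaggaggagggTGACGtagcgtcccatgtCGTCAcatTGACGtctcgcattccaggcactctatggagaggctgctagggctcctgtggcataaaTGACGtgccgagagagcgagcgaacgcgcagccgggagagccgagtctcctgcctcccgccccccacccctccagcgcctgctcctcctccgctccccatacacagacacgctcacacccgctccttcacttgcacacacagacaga
In these 250 bases *Fos* and *Egr4* each hold 2 half-sites and *Nr4a1* and *Nr4a3* each hold 4. The half-site was found in 27 of 43 promoter windows of the listed genes (62.8%) and in 20.8% of all 32851 windows of 300 bases in the RefSeq table, which run from 250 bases before to 50 bases after the start. The full CRE, TGACGTCA, which contains the half-site, was in 9.3% of the windows of listed genes and 1.79% of all. The CArG box, searched by its name pattern, was in 14.0% against 1.63%. Its 6 windows of listed genes belong to only 3 of 33 genes (*Egr2*, *Dusp5* and *Zfp36*). The EGR site GCGNGGGCG was in 23.3% against 5.55%, the AP-1 site TGANTCA in 2.33% against 7.81%, and TATAAA in 14.0% against 13.6%. Both strands were searched, and 33 of the 45 genes had a promoter in the table. Some of these genes have several of the 43 windows and so count more than once in the percentages. Matches were read as letters in this window, not as bound sites.

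In the annotation of build NCBIM37, all 45 genes had 1 position and all were protein coding. *Fos* lies at chr12:86814840-86818223, *Egr4* at chr6:85461125-85463583, *Nr4a1* at chr15:101097277-101105223 and *Nr4a3* at chr4:48058025-48099319. Exons of 7 genes overlap a gene on the other strand (*Fosl1*, *Jun*, *Jund*, *Crem*, *Egr1*, *Tiparp* and *Plk3*), and the strand option of the counting is not given in the sources used here, so their counts are uncertain. The overlap was 1162 of 1707 exon bases for *Fosl1*, an AP-1 factor, with *Ccdc85b*. It was smaller for the others: 543 of 2878 for *Jund*, 232 of 3189 for *Jun* and 223 of 3985 for *Tiparp*. For *Crem* it was 103 of 5937, for *Plk3* 84 of 2531 and for *Egr1* 8 of 3100. *Fosl1* was at 0.0288 to 0.0436 CPM in WT P14 CB, where *Ccdc85b* was at 46.5 to 51.1 CPM, and at 9.94 to 11.1 CPM in WT P35 CB, where *Ccdc85b* was at 100.1 to 106 CPM. *Fosl1* was called higher in WT HC than in WT CB at P14 (7.17 ± 0.31) and lower at P35 (-0.55 ± 0.196, log2 fold change). Its level in WT P14 CB was near the floor, and the share of reads on no feature also differed between P14 CB and P14 HC. The part of these and of the overlap with *Ccdc85b* in the difference was not tested. Isoforms of *Homer1* and *Crem* cannot be separated in counts per gene.

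In WT mice the listed genes were mostly higher in HC than in CB at P14, where 28 of 45 were called higher and 5 lower in HC, by an adjusted p of at most 0.05 in edgeR. Over all genes tested at P14, 77.2% were called between the regions and 38.4% were called higher in HC. At P35, 21 of 41 tested were called higher and 7 lower, beside 56% and 28.5% of all genes. *Fosl1*, whose counts are uncertain, is among those called higher at P14 and lower at P35. *Egr3*, a zinc finger factor downstream of activity, stood at 0.230000, 0.146 and 0.0436 CPM in WT P14 CB and at 36.4, 27.5 and 36.5 CPM in WT P14 HC. The same gene was at 0.157, 0 and 0.554 CPM in WT P35 CB and at 40.97, 23.9 and 28.9 CPM in WT P35 HC. The regions did not overlap at either age, and the log2 fold change was 7.73 ± 0.25 at P14 and 7.19 ± 0.43 at P35. *Ptgs2*, the inducible cyclooxygenase, was at 0.403, 0.322 and 0.479 CPM in WT P14 CB against 13.96, 18.7 and 16.4 CPM in WT P14 HC (5.36 ± 0.203, log2 scale). *Arc*, whose product acts in AMPA receptor endocytosis, differed by 4.39 ± 0.32 at P14 and 3.33 ± 0.302 at P35 on the same scale. Of the few genes higher in CB, *Dusp5*, a phosphatase of nuclear ERK, was at 33.01, 47.7 and 46.3 CPM in WT P14 CB against 4.24, 5.23 and 7.35 CPM in WT P14 HC. Its difference was -2.91 ± 0.199 at P14 and -2.402 ± 0.22 at P35. Region and sequencing lane cannot be told apart in these values. At P14 the share of reads on no feature also differed between the regions, and it cannot be told apart from region either.

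**Figure D1:**
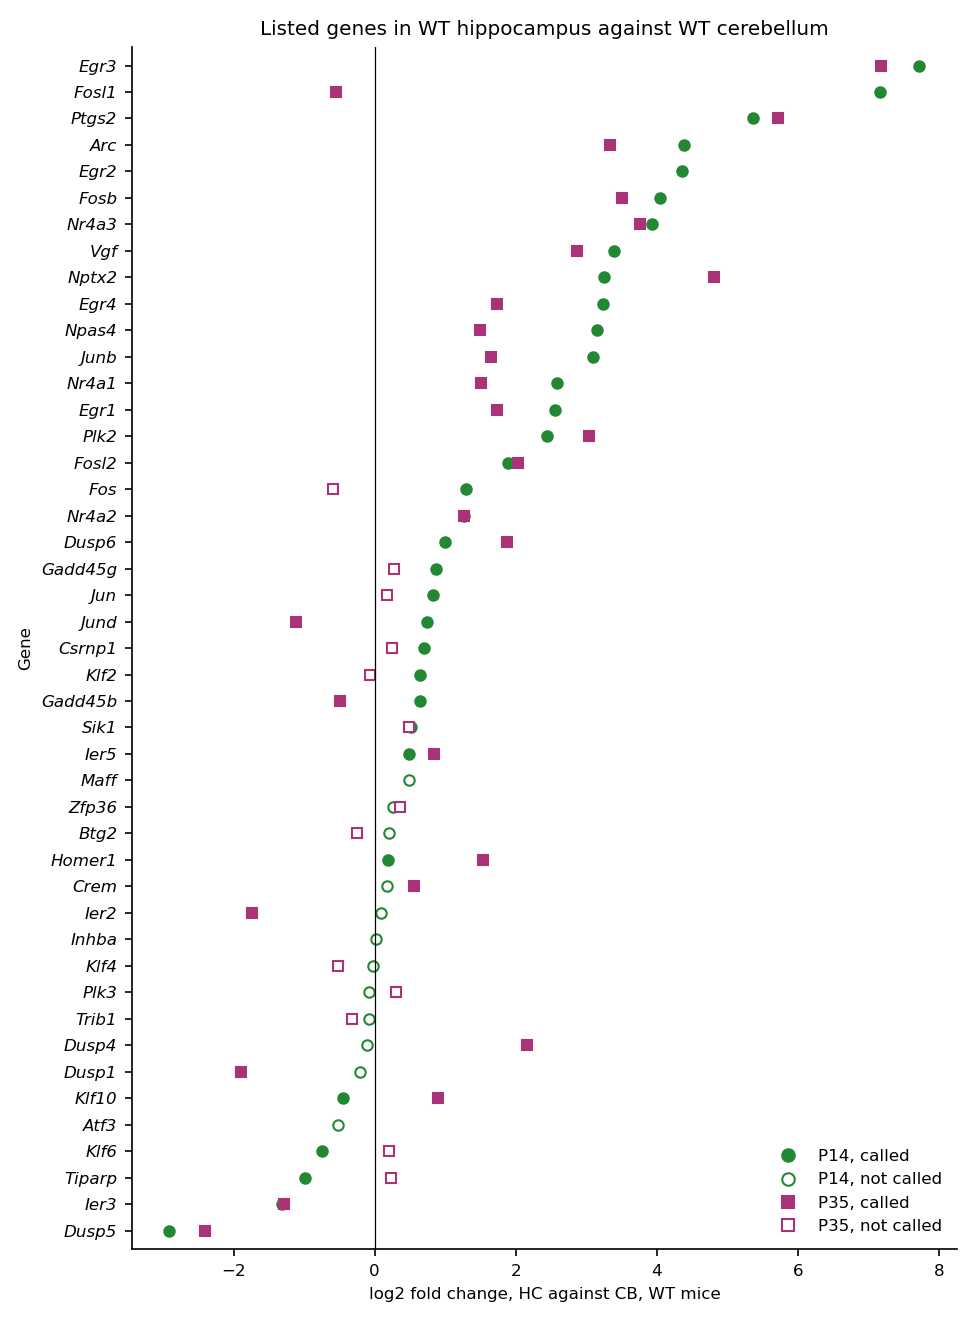
log2 fold change of WT HC against WT CB (x axis) for each listed gene (y axis), at P14 (circles) and P35 (squares), from edgeR with 3 libraries per group. Filled symbols were called at an adjusted p of at most 0.05. *Egr3* lies farthest to the right, at 7.73 (P14) and 7.19 (P35), and *Dusp5* farthest to the left, at -2.91 and -2.40. The P14 point of *Fosl1* rests on a level near the floor in CB.

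Per kilobase of exon, the order of the listed genes also differed between the regions. In WT P14 CB the highest was *Jund*, a JUN family member with steady expression, at 31.0 CPM per kilobase, followed by *Dusp5* at 17.1 and *Jun* at 16.1. In WT P14 HC the highest were *Vgf*, a secreted neuropeptide precursor, at 74.4 and *Plk2*, a kinase of synaptic scaling, at 65.0, ahead of *Jund* at 51.9 CPM per kilobase. At P35 *Jund* (72.8) led in WT CB, and *Plk2* (71.4) and *Arc* (63.9) led in WT HC. The lowest at P35 was *Egr2* in WT CB (0.064) and *Atf3*, a stress-induced factor, in WT HC (0.623 CPM per kilobase). These are means over 3 mice, and neighbours in the order were not tested against each other.

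In P14 CB, 42 of the 45 genes passed the filter on low counts, and 2 of them were called, *Egr4* and *Nr4a1*, both higher in 16GsoT/T (0.0938% of all 15993 genes were called higher and 0.506% in either direction). Of the 42, 31 had a log2 fold change above 0 (50.8% of all genes did), and their median was 0.0886 beside 0.002 for all genes tested. *Egr4* was at 2.42, 3.28 and 4.18 CPM in WT and at 6.45, 6.45 and 7.37 CPM in 16GsoT/T mice. All 3 mutant libraries lay above all 3 WT libraries, with a log2 fold change of 1.03 ± 0.19 (± SE here and below) and an adjusted p of 0.04995 (edgeR). *Nr4a1* was at 7.71, 8.96 and 13.4 CPM in WT and at 19.6, 18.3 and 21.7 CPM in mutants. Again the groups did not overlap (0.98 ± 0.18, adjusted p = 0.04995). Both values of p lay just inside the threshold, and neither call held without WT1, WT2, T5 or T6, each left out alone (nor *Nr4a1* without T4). DESeq2 called 5 of the 42 genes, *Fos*, *Npas4* and *Nr4a3* besides these, and 1.51% of all genes.

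Among the AP-1 factors of P14 CB, *Fos* was at 5.78, 4.48 and 9.85 CPM in WT and at 17.04, 13.6 and 25.3 CPM in 16GsoT/T. No mutant value fell in the WT range, and the test gave 1.48 ± 0.29 with an adjusted p of 0.0729, short of the threshold. *Junb*, a JUN family member induced with *Fos*, was at 4.57, 5.21 and 4.79 CPM in WT and 5.99, 6.01 and 7.01 CPM in mutants (0.36 ± 0.13, adjusted p = 0.3999). *Npas4*, an activity-dependent factor of inhibitory synapse formation, was at 0.863, 1.32 and 0.958 CPM in WT and 1.91, 2.07 and 3.08 CPM in mutants. Its groups did not overlap either, and it was not called (1.14 ± 0.26, adjusted p = 0.128). Also above 1 on the log2 scale, without overlap and not called, were *Nr4a3* (1.58, 1.87 and 3.09 CPM in WT, 5.15, 3.26 and 6.62 CPM in mutants, 1.21 ± 0.301, adjusted p = 0.173) and *Fosb* (1.04 ± 0.44, adjusted p = 0.528). *Fosb*, which encodes the FOS relative that persists after repeated stimulation, was below 1 CPM in each of these 6 libraries.

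In the same tissue, *Egr1* and *Arc* gave other values. *Egr1*, the zinc finger factor also known as Zif268, was at 17.8, 20.6 and 20.95 CPM in WT and 17.7, 19.2 and 18.8 CPM in 16GsoT/T (-0.11 ± 0.09, adjusted p = 0.812). *Arc* was at 5.12, 4.68 and 4.49 CPM in WT and 5.56, 4.04 and 3.42 CPM in mutants (-0.16 ± 0.19, adjusted p = 0.872). The groups overlapped for both. Over the 42 genes, 9 had all mutant libraries above all WT libraries (8.32% of all genes did) and 1, *Maff*, had them below (5.77%). At an unadjusted p of at most 0.05 there were 14, of which 13 were higher in mutants, beside 8.89% of all genes in either direction. WT3 was the highest WT library for 27 of the 42 genes, beside 33.9% of all genes. Without it 3 were called (*Fos*, *Egr4* and *Nr4a1*), beside 0.0371% of all genes called higher. Leaving out the WT library that is highest for most of these genes raises their ratios by construction, so this count is a description. With WT1, WT2, T5 or T6 left out instead, edgeR called 0, and without T4 it called *Egr4*, beside 0.204 to 1.12% of all genes. Of 13 glucocorticoid-responsive genes, 9 were called lower in these mutants; their part in the result was not tested.

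In P35 CB, 13 of 39 tested genes were called, all of them higher in 16GsoT/T. That share, 33.3%, was near the 35.3% of all 14004 genes called in either direction in this comparison, with 17.4% called higher and 18% lower. The median log2 fold change of the 39 genes was 0.271, beside -0.004 for all genes, and 30 of them were above 0 (49.6% of all genes). When a change of 1.5-fold or more was also required, 12 were called, beside 11.7% of all genes. Those called were the 5 tested EGR and NR4A factors (*Egr1*, *Egr4*, *Nr4a1*, *Nr4a2* and *Nr4a3*), 3 AP-1 factors (*Fos*, *Fosl2* and *Jun*), 3 feedback inhibitors (*Dusp4*, *Dusp5* and *Trib1*) and 2 secreted effectors (*Nptx2* and *Vgf*). At an unadjusted p of at most 0.05 there were 17, beside 45% of all genes. All mutant libraries lay above all WT libraries for 13 of the 39 genes, beside 25.1% of all genes. They lay below for 1, *Plk2*, beside 22.6% of all genes. In this fit none of the 8 other induced factors and none of the 5 genes of stress or growth arrest was called, with 0 of the former and 1 of the latter, *Gadd45g*, at an unadjusted p of at most 0.05. Other edgeR fits called some of them: *Npas4* higher without the filter on low counts and without C20 or M29, *Klf6* and *Gadd45g* higher without C19, and *Klf2* lower without M27. DESeq2 called 9 of the 39 genes, beside 26.8% of all genes, and left out *Fos*, *Jun*, *Nptx2* and *Nr4a1*.

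*Nr4a3* rose most. It was at 1.73, 3.19 and 2.59 CPM in WT and at 14.5, 16.4 and 38.7 CPM in 16GsoT/T P35 CB. All 3 mutant libraries lay above all 3 WT libraries, and the log2 fold change was 3.17 ± 0.41 (adjusted p = 1.06e-04). *Nr4a2*, a factor of dopaminergic neurons, was at 11.8, 15.5 and 27.5 CPM in WT and 50.7, 43.2 and 60.8 CPM in mutants, without overlap (1.51 ± 0.22, adjusted p = 2.81e-04). *Nr4a1* was at 11.3, 28.3 and 41.4 CPM and 51.7, 39.8 and 74.98 CPM. Here mutant library C20 lay below WT library M29, so the groups overlapped (1.04 ± 0.32, adjusted p = 0.0227), and the call was lost without M27, M28 or C21. Among the EGR factors, *Egr4* was at 5.02, 12.6 and 9.24 CPM in WT and 27.5, 16.4 and 25.1 CPM in mutants (1.302 ± 0.26, adjusted p = 0.00233). *Egr1* was at 35.8, 51.03 and 38.98 CPM and 71.7, 55.7 and 71.4 CPM (0.63 ± 0.13, adjusted p = 0.00297). Neither overlapped, and both calls held with any 1 library left out, but *Egr1* was not called in 1 fit of all 12 libraries of the age (adjusted p = 0.1196). *Egr2* and *Egr3* did not pass the filter in P35 CB, and *Egr3* was at 0.512, 0.424 and 2.38 CPM in the mutants.

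Of the AP-1 factors in P35 CB, *Fosl2*, which encodes FRA2, was at 8.47, 12.5 and 13.1 CPM in WT and 29.2, 21.1 and 54.1 CPM in mutants. C21 was the highest of the 6 libraries and the groups did not overlap (1.59 ± 0.2999, adjusted p = 0.00151). *Fos* was at 14.6, 41.3 and 50.3 CPM in WT and 104, 60.04 and 107 CPM in mutants (1.34 ± 0.31, adjusted p = 0.00508). Among WT mice M27 was low for *Fos* and for 25 of the 39 genes it was the lowest. *Junb* was at 8.94, 17.4 and 16.8 CPM and 21.2, 12.6 and 18.3 CPM, with overlap and no call (0.23 ± 0.24, adjusted p = 0.475). *Jun* changed by 0.47 ± 0.14 (adjusted p = 0.0201), and its call was lost without M27 or M29.

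Both called effectors are secreted proteins. *Vgf* was at 13.8, 16.3 and 19.03 CPM in WT and 29.7, 41.4 and 42.5 CPM in 16GsoT/T P35 CB, without overlap (1.204 ± 0.16, adjusted p = 1.09e-04). *Nptx2*, a pentraxin that gathers AMPA receptors, was low at 1.41, 1.35 and 1.11 CPM in WT and 2.22, 1.98 and 5.65 CPM in mutants. The groups did not overlap, but C21 carried much of the difference: the log2 fold change was 1.31 ± 0.44 (adjusted p = 0.0353) with it and 0.66 (adjusted p = 0.2297) without it, where the call was lost, as it was without M27, M28 or M29. *Arc* was at 19.9, 20.9 and 19.95 CPM in WT and 24.9, 15.1 and 34.5 CPM in mutants. Mutant values lay on both sides of the WT values and *Arc* was not called (0.27 ± 0.22, adjusted p = 0.371), although it was called higher without C20 (0.54, adjusted p = 0.0133) and stood at -0.048 without C21. *Npas4* was at 2.04, 4.91 and 9.98 CPM and 13.1, 4.94 and 13.5 CPM, with overlap (0.91 ± 0.44, adjusted p = 0.129). Of the inhibitors, *Dusp4*, an ERK and JNK phosphatase, changed by 1.17 ± 0.22, *Trib1*, a pseudokinase, by 0.92 ± 0.17 and *Dusp5* by 0.63 ± 0.13 on the log2 scale, and these 3 calls held with any 1 library left out.

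Of 32 genes of upstream signalling, 13 were called higher and 2 lower in P35 CB, beside 17.4% and 18% of all genes, with a median log2 fold change of 0.148 and 25 above 0. In HC the list lay the other way, with 10 above 0 at P14 (median -0.116) and 9 at P35 (median -0.136). The largest changes were those of *Mkl1*, a cofactor of serum response factor (0.61 ± 0.13), *Mef2d*, a calcium-regulated factor (0.54 ± 0.07), *Camk2b*, a calmodulin kinase subunit (0.49 ± 0.07), and *Prkaca*, a catalytic subunit of protein kinase A (0.49 ± 0.07). Of 23 tested late response genes, 6 were called higher and 2 lower (median 0.0844), a share close to the 35.3% of all genes called in either direction, with *Sst*, which encodes somatostatin (1.57 ± 0.51), *Per1*, a clock gene with CRE sites (0.77 ± 0.11), *Nrn1*, a neurite growth factor (0.48 ± 0.11), and *Penk*, the enkephalin precursor (0.46 ± 0.0999), changed most. By edgeR no gene of either list was called in P14 CB, P14 HC or P35 HC, where 2, 10 and 6 upstream genes and 3, 6 and 4 late response genes had an unadjusted p of at most 0.05, beside 8.89%, 17.5% and 8.84% of all genes. In the same P35 CB libraries, 9 of 12 heat shock genes were called higher (summed level 3903 to 4089 CPM in WT and 5149 to 6623 in mutants), all 11 endothelial markers were called lower (238 to 248 against 120.4 to 127 CPM), and 5 of 13 glucocorticoid-responsive genes were called higher. Of 15 clock genes 7 were called higher and 3 lower. Choroid plexus markers summed to 204 CPM in M27, to 2040 and 3287 CPM in M28 and M29, and to 327 to 764 CPM in mutants, with 3 of 10 tested called lower. Reads on genes were 37.6 to 37.7% of each WT library and 42.3 to 42.4% of each mutant library. The part of these in the changes of the listed genes was not tested.

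**Figure D2:**
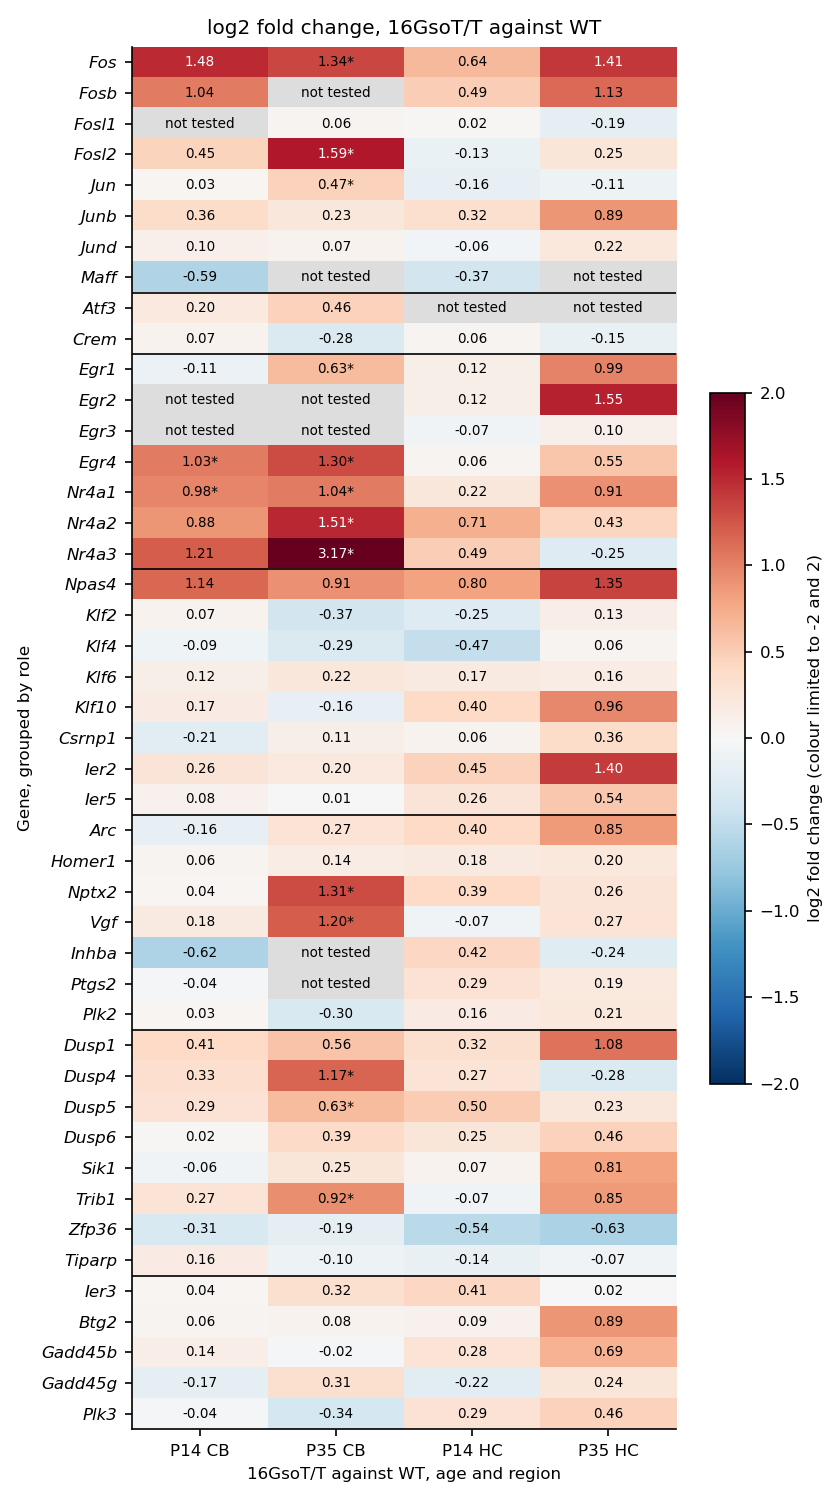
log2 fold change of 16GsoT/T against WT for the 45 genes (rows, grouped by role from AP-1 factors at the top to stress or growth arrest at the bottom) in the 4 comparisons (columns), from edgeR with 3 libraries per group. Asterisks mark an adjusted p of at most 0.05 and grey cells did not pass the filter on low counts. Asterisks stand on 2 genes in P14 CB, 13 in P35 CB and none in HC.

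The effect of genotype in CB was then compared between ages. In the interaction of genotype with age, 4 of 42 tested genes were called, each with a larger mutant-to-WT ratio at P35 (7.81% of all genes tested were called in that direction and 18.6% in either). They were *Nr4a3* (1.95 ± 0.58, adjusted p = 0.0287), *Vgf* (1.02 ± 0.205, adjusted p = 0.00304), *Dusp4* (0.84 ± 0.27, adjusted p = 0.0423) and *Egr1* (0.73 ± 0.17, adjusted p = 0.00831). Calls of *Vgf* and *Egr1* held in all 12 fits with 1 library left out. That of *Nr4a3* was lost without C21, M27, M29 or WT3 (1.37 to 1.97), and that of *Dusp4* without C21, M27, M28, M29, WT3, T5 or T6 (0.64 to 0.95). No difference between the ages was detected for *Fos*, *Egr4* or *Nr4a1* by this test. The ages were sequenced in separate lanes. P14 CB libraries were single-indexed and P35 CB libraries dual-indexed, and their shares of reads on no feature differed. Age cannot be told apart from these.

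In P14 HC, edgeR called none of the 44 tested genes, beside 0.814% of all 15227 genes, although 32 had a log2 fold change above 0, beside 50.6% of all genes (median 0.176 and 0.002). At an unadjusted p of at most 0.05 there were 9, beside 17.5% of all genes. DESeq2 and the exact test of edgeR each called *Nr4a2* and *Nr4a3* (2.62% and 4.05% of all genes). *Nr4a3* was at 29.2, 32.4 and 35.1 CPM in WT and 40.1, 50.8 and 44.6 CPM in mutants, without overlap (0.49 ± 0.11, adjusted p = 0.0739 in edgeR's quasi-likelihood test). *Fos* was at 9.34, 7.31 and 31.8 CPM in WT and 22.2, 24.4 and 28.7 CPM in mutants. WT library N6 was above all 3 mutant libraries for *Fos* while the other WT libraries were below them (0.64 ± 0.45, adjusted p = 0.487). *Egr1* showed the same order, at 102, 66.04 and 183 CPM in WT and 116, 118 and 145 CPM in mutants (0.12 ± 0.298, adjusted p = 0.868). *Nr4a1* was at 44.97, 33.6 and 99.9 CPM and 62.9, 66.03 and 78.2 CPM (0.22 ± 0.33, adjusted p = 0.769).

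*Junb* was at 33.03, 35.7 and 56.3 CPM in WT P14 HC and 52.7, 53.1 and 49.4 CPM in mutants (0.32 ± 0.18, adjusted p = 0.381), again with N6 above the mutants. *Arc* was at 96.98, 55.5 and 150.1 CPM and 112, 132 and 154 CPM (0.401 ± 0.29, adjusted p = 0.502), and *Npas4* at 9.05, 5.68 and 13.5 CPM and 15.9, 11.6 and 21.4 CPM (0.804 ± 0.304, adjusted p = 0.223). *Egr4* was at 27.7, 24.4 and 39.1 CPM and 30.7, 27.5 and 36.1 CPM (0.06 ± 0.17, adjusted p = 0.895). The groups overlapped for all of these. N6 was the highest WT library for 27 of the 44 genes, beside 34.1% of all genes, and neocortical markers summed to 257 CPM in it and to 135 and 144 CPM in N4 and N5. In N4, striatal markers summed to 661 CPM, beside 149 to 163 CPM in the other WT libraries. Leaving out the WT library that is highest for most of these genes raises their mutant-to-WT ratios by construction, so the values without N6 are a description. Without N6 the median was 0.289 and 3 of 45 tested genes were called higher (beside 0.302% of all genes): *Fos* (1.60003 ± 0.16), *Junb* (0.59 ± 0.08) and *Dusp1*, a MAP kinase phosphatase (0.7999 ± 0.09). Groups that did not overlap were 6 with mutants higher and 1 with mutants lower, beside 11.6% and 12.2% of all genes. In P14 HC 3 glucocorticoid-responsive genes were called lower, and lane and genotype cannot be told apart.

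In P35 HC, edgeR again called none of the 43 tested genes (0.112% of all 13343 genes were called higher and 0.0225% lower, 0.135% in all), while 35 of them had a log2 fold change above 0 (48.5% of all genes) and the median was 0.267, beside -0.007 for all genes. At an unadjusted p of at most 0.05 there were 17, all higher in 16GsoT/T, beside 8.84% of all genes in either direction. *Klf10*, a TGF-beta-inducible Krüppel-like factor, came nearest, at 24.1, 18.7 and 30.8 CPM in WT and 43.997, 54.3 and 45.4 CPM in mutants. Its groups did not overlap and the log2 fold change was 0.96 ± 0.18 (adjusted p = 0.0621); DESeq2 (0.33% of all genes called), the exact test (0.66%) and a fit of all 12 libraries of the age (0.258%) called it. *Npas4* was at 20.5, 7.28 and 16.5 CPM in WT and 23.7, 33.6 and 55.96 CPM in mutants (1.35 ± 0.33, adjusted p = 0.211), and *Ier2*, an early-induced nuclear protein, at 7.001, 4.42 and 8.8002 CPM and 11.8, 10.5 and 30.5 CPM (1.403 ± 0.38, adjusted p = 0.274). Neither of these overlapped between the genotypes, and neither was called by the quasi-likelihood test after the filter on low counts. The exact test called *Npas4* besides *Klf10*, and without the filter 7 genes were called (*Npas4*, *Ier2*, *Klf10*, *Dusp1*, *Egr1*, *Fos* and *Nr4a1*), beside 0.7% of all genes. All mutant libraries were above all WT libraries for 7 of the 43 genes and below for none, beside 5.73% and 6.97% of all genes.

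The WT libraries of P35 HC were far apart. *Fos* was at 48.2, 3.12 and 15.4 CPM in WT and 54.2, 26.6 and 93.6 CPM in 16GsoT/T (1.41 ± 0.55, adjusted p = 0.472). W481 and W483 lay below every mutant library, and N10 lay between the mutants. *Egr1* was at 202, 80.4 and 121 CPM in WT and 259, 162 and 370.4 CPM in mutants (0.99 ± 0.28, adjusted p = 0.292), and *Nr4a1* at 118, 39.5 and 61.6 CPM and 119, 83.6 and 204 CPM (0.91 ± 0.32, adjusted p = 0.417). Both followed the order seen for *Fos*. *Junb* was at 67.2, 25.2 and 37.1 CPM and 69.8, 41.4 and 125 CPM (0.89 ± 0.34, adjusted p = 0.454). *Arc* was at 297, 97.8 and 191 CPM and 290.004, 198 and 556 CPM (0.85 ± 0.34, adjusted p = 0.491), and *Egr4* at 49.3, 16.4 and 21.7 CPM and 46.1, 22.7 and 56.5 CPM (0.55 ± 0.34, adjusted p = 0.715). For these 3 genes, too, N10 was the highest WT library and lay above the lowest mutant library, B11.

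Without N10, 9 of 43 genes were called, all higher in 16GsoT/T, beside 0.654% of all genes called higher, and the median was 0.568. They were *Fos* (2.67 ± 0.48), *Fosb* (2.34 ± 0.44), *Egr1* (1.38 ± 0.25), *Egr2* (2.83 ± 0.63), *Nr4a1* (1.42 ± 0.28), *Nr4a2* (0.86 ± 0.199), *Npas4* (1.65 ± 0.35), *Klf10* (0.93 ± 0.202) and *Dusp1* (1.62 ± 0.31), given as log2 fold changes. N10 was singled out by its values of these genes, and leaving it out raises their ratios by construction, so the count describes how far 1 library moves the result. With B10, B11, B12 or W481 left out instead, edgeR called 0 (7 to 22 had an unadjusted p of at most 0.05), and without W483 it called *Klf10*, beside 0.044 to 0.294% of all genes over these 5 fits. N10 is the WT library that shares single indexing with the mutants, and against it alone the 3 mutant libraries gave a median of 0.113 with 27 of 43 genes higher, without a test. The sign turned for 12 of the 43, among them *Nr4a2* (-0.17), *Egr4* (-0.19) and *Zfp36* (0.43). It was the highest WT library for 33 of the 43 genes, beside 41.9% of all genes. Thalamic markers summed to 305 CPM in N10 and to 93.2 and 118 CPM in the other WT libraries, and heat shock genes to 6835 against 5190 and 5197 CPM. Choroid plexus markers summed to 251 to 339 CPM in WT and 744 to 2432 CPM in mutants, with 6 of 9 tested called higher. The part of the index batch and of these tissue markers in the result was not tested.

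**Figure D3:**
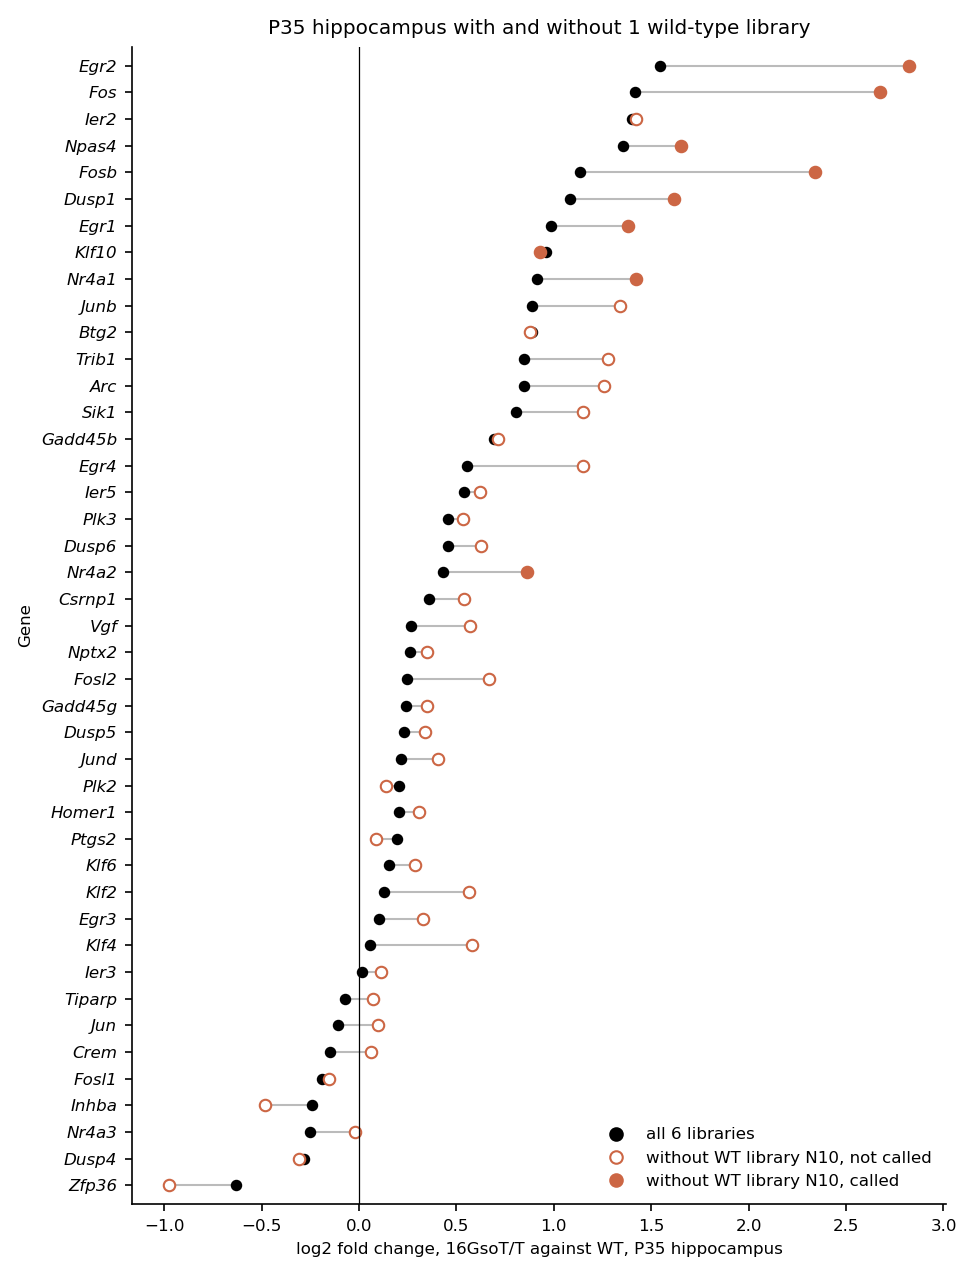
log2 fold change of 16GsoT/T against WT in P35 HC (x axis) for the 43 tested genes (y axis), from all 6 libraries (black) and without WT library N10 (orange), by edgeR. Filled orange points were called at an adjusted p of at most 0.05 without N10, which holds for 9 genes, and none was called from all 6.

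The listed genes varied more between mice of one group than the genes of the table did. The median SD of log2 CPM over the 3 libraries was 0.467 for the listed genes in WT P35 HC, beside 0.179 for all genes tested, and 22 of 43 lay above the 90th percentile of all genes. The largest SD there was that of *Egr2*, a zinc finger factor, 2.16, with values of 13.7, 0.2602 and 4.95 CPM. The value of 0.2602 CPM, in W481, was near the floor in a library of 3824202 reads on genes. In 16GsoT/T P35 HC the medians were 0.348 and 0.194, and B12 was the highest library for 28 genes and B11 the lowest for 31. In WT P35 CB they were 0.225 and 0.111, and in 16GsoT/T P35 CB 0.274 and 0.131. At P14 the gap was smaller in 16GsoT/T HC (0.126 and 0.110) and in CB (0.174 and 0.101 in WT, 0.146 and 0.115 in mutants) than in WT HC (0.274 and 0.123). These are descriptions with 3 libraries each, and no test was made of the difference.

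**Figure D4:**
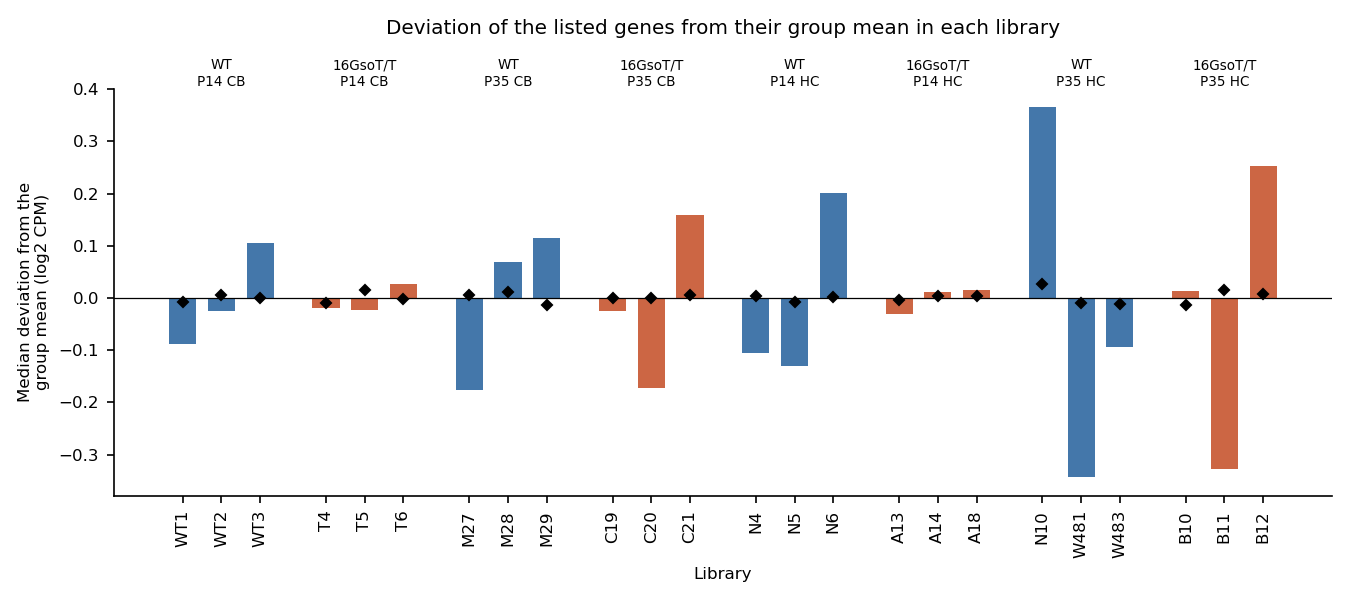
Median deviation of the listed genes from the mean of their own group, in log2 CPM (y axis), for each library (x axis), with WT in blue and 16GsoT/T in orange. Black diamonds give the same median for all genes tested. The bars of N10 (0.366), W481 (-0.343) and B11 (-0.328) are the longest, while all diamonds lie within 0.03 of 0.

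**Figure D5:**
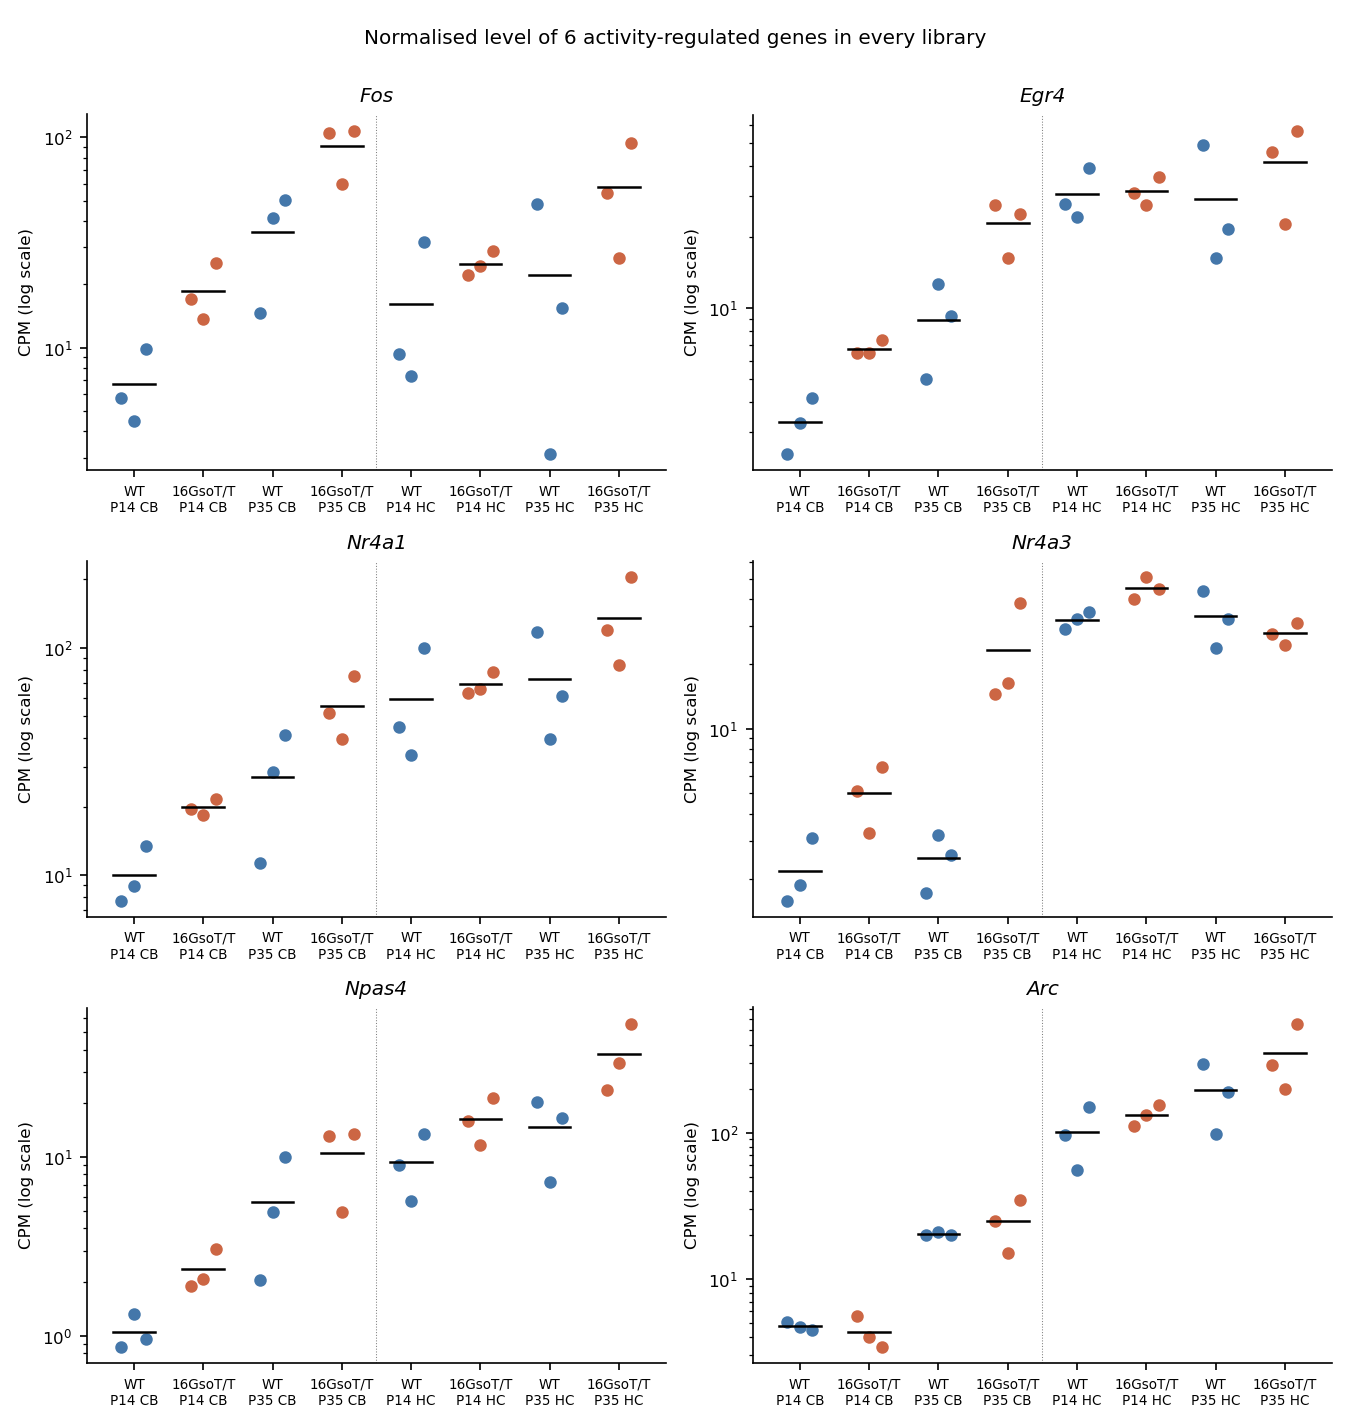
CPM on a log scale (y axis) for 6 genes in the 8 groups (x axis), with WT in blue and 16GsoT/T in orange. Each point is 1 library and each line the mean of 3. *Nr4a3* separates the genotypes in P35 CB (1.73 to 3.19 against 14.5 to 38.7 CPM), and *Fos* spans 3.12 to 48.2 CPM within WT P35 HC.

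The effect of genotype was also compared between the regions. At P35, 4 of 45 tested genes were called in the interaction with region, beside 9.61% of all genes (5.1% with a higher ratio in HC). *Nr4a3* (-3.41 ± 0.496, adjusted p = 3.87e-04) and *Dusp4* (-1.45 ± 0.28, adjusted p = 0.00374) had a lower mutant-to-WT ratio in HC than in CB. *Klf10* (1.12 ± 0.25, adjusted p = 0.00898) and *Plk2* (0.51 ± 0.14, adjusted p = 0.03296) had a higher one. All P35 CB libraries were dual-indexed, whereas in P35 HC the mutant libraries and N10 were single-indexed and W481 and W483 dual-indexed. The interaction with region thus includes any effect of indexing, whose part was not tested. The call of *Plk2* was lost in 8 of 12 fits with 1 library left out, without B12, N10, W481, C19, C20, M27, M28 or M29 (0.42 to 0.52), and the other calls held in all 12. *Dusp4* was at 3.61, 4.91 and 4.804 CPM in WT P35 CB and 8.87, 8.901 and 12.6 CPM in mutants, and at 18.9, 21.1 and 17.3 and 15.8, 17.97 and 13.6 CPM in P35 HC. The mutants lay above WT in CB without overlap and overlapped with WT in HC. *Nr4a3* was at 23.7 to 43.8 CPM in WT P35 HC and at 24.6 to 31.0 CPM in mutants, with overlap and no call (-0.25). *Plk2* was at 24.2, 26.7 and 25.1 and 20.98, 18.4 and 23.2 CPM in P35 CB, where every mutant library was below every WT library. In P35 HC *Plk2* was at 185, 199 and 216 and 221, 237 and 234 CPM, with every mutant library above every WT library. It was called in neither comparison of the genotypes. At P14, edgeR called none of the listed genes and 0% of all genes in this interaction, and 4 listed genes had an unadjusted p of at most 0.05, beside 9.2% of all genes (*Egr4*, *Nr4a3*, *Fosl2* and *Tiparp*); DESeq2 called *Egr4*. In HC, the interaction with age called none of the listed genes by edgeR, beside 0.00666% of all genes, and 3 had an unadjusted p of at most 0.05, beside 11.4% of all genes (*Nr4a3*, *Klf10* and *Dusp4*). DESeq2 called 0 there.

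Over the 4 comparisons of 16GsoT/T with WT, 32 of the 45 genes were called in none, 11 in 1 and 2 in 2 of them, the latter being *Egr4* and *Nr4a1* in CB at both ages. Each listed gene called at all was called in P35 CB, where 35.3% of all genes were called, 17.4% higher and 18% lower. The share of all genes called was 0.814% in P14 HC, 0.506% in P14 CB and 0.135% in P35 HC. The counts thus depend largely on how many genes each comparison called. No listed gene was called lower in any of the 4 comparisons. With 1 library left out in P35 CB, however, edgeR called *Plk2* lower (without C21) and *Klf2* lower (without M27). *Zfp36*, which encodes the mRNA decay factor tristetraprolin, was the one gene tested in all 4 with a negative log2 fold change in each (from -0.63 to -0.19), and it was called in none of the 4.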

How the data were processed

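Total RNA of each tissue was made into mRNA libraries and sequenced. The methods name a KAPA Stranded mRNA-Seq kit and the sample annotation a TruSeq Stranded kit. The submitters' processing notes list CASAVA 1.8.2, TopHat2 2.0.8, HTSeq 0.6.1, edgeR 3.2.4, R 3.0.0 and build NCBIM37. The values deposited by the authors were raw counts of reads per gene symbol, 1 table for each age, with no normalization. HTSeq summary rows were left out of library sizes and tests, so that 37.6 to 68.1% of the reads in the tables, those on genes, were used. No column of counts was left out. The annotation and strand option are not given in the sources used here.

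In R 4.3.3, each comparison of 6 libraries was fitted with the quasi-likelihood test of edgeR 4.0.16 after TMM scaling and filterByExpr (minimum count 10, minimum total 15), with Benjamini-Hochberg adjustment over all genes tested and a call at 0.05. SE was taken from the same fit. Interactions used 12 libraries, and the region contrast the 6 WT libraries of an age. With 3 libraries a group, the exact permutation test of one value cannot go below 0.1, so none is given. The spread of a group is the SD of log2(CPM + 0.5). Tried as well were DESeq2 1.42.0, its size factors, edgeR's exact test, an unfiltered table, 10 or more counts in each library, 1 fit per age, and the omission of single libraries. The scripts were tested on simulated data. The listed genes and the gene lists were chosen with earlier results of these data known, and the tests were fitted over all genes. Values in every library are given for *Fos*, *Arc*, *Npas4*, *Egr1*, *Nr4a1* and *Junb*, for members called in 2 or more comparisons and for the 6 called members that changed most in each comparison; members with values at 1 or more on the log2 scale and without overlap are named. *Klf10*, *Plk2*, *Dusp4* in HC, and the genes named from the region contrast were chosen after their values were seen. Promoters and their build are from RefSeq.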

Additional observations from a re-analysis of the deposited data

Results flagged for a closer look

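Listed genes of 2 sets had an effect of genotype that differed between groups by an interaction test of edgeR over 12 libraries, the test of the difference itself. They were 4 of 42 between ages in CB, beside 18.6% of all genes, and 4 of 45 between regions at P35, beside 9.61%, so neither share lay above that of all genes. Between ages in CB, the mutant-to-WT ratio was larger at P35 than at P14 for *Nr4a3* (log2 difference 1.95 ± 0.58, SE), *Vgf* (1.02 ± 0.20), *Dusp4* (0.84 ± 0.27) and *Egr1* (0.73 ± 0.17). Between regions at P35, the ratio was lower in HC than in CB for *Nr4a3* (-3.41 ± 0.50) and *Dusp4* (-1.45 ± 0.28) and higher in HC for *Klf10* (1.12 ± 0.25) and *Plk2* (0.51 ± 0.14). With single libraries left out, the call of *Nr4a3* between ages was lost in 4 fits, that of *Dusp4* between ages in 7 and that of *Plk2* between regions in 8, each of 12, and the other 5 calls held. Lane and indexing coincided with age in CB, lane coincided with region, and indexing differed within P35 HC. Their part in these differences was not tested.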

How the results depend on the processing

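By DESeq2 the listed genes called numbered 5 in P14 CB, 2 in P14 HC, 1 in P35 HC, 7 in the interaction of genotype with age in CB and 1 in that with region at P14, beside 1.51, 2.62, 0.33, 20.1 and 0.549% of all genes. The exact test of edgeR gave 6, 2 and 2 in P14 CB, P14 HC and P35 HC, beside 1.55, 4.05 and 0.66%. In P35 HC no filter gave 7 (0.7% of all genes) and 1 fit of the age gave 1 (0.258%). With single libraries left out, the counts ran from 0 to 3 in P14 CB (0.204 to 1.12% of all genes), 0 to 3 in P14 HC (3 without N6, 0.0847 to 0.743%), 0 to 9 in P35 HC (9 without N10, 1 without W483, 0.044 to 1.02%), 2 to 7 in the interaction with age in CB (12.8 to 22.2%) and 3 to 7 in that with region at P35 (6.03 to 9.71%). Those of P35 CB stayed within 1.5 times 13, with other genes among them (*Arc* and *Npas4* gained without C20). Signs turned for *Arc* (-0.048 to 0.54) and *Junb* (-0.0095 to 0.43) in P35 CB and for *Egr1* (-0.17 to 0.60), *Nr4a1* (-0.064 to 0.82) and *Egr4* (-0.083 to 0.28) in P14 HC, and *Egr4* in P35 HC was at -0.19 within the single-index batch, where 12 of 43 signs turned. The cause was not tested. Of 638 values of single genes under an alternative, 564 were unchanged, meaning the same sign and side of the threshold. Values within the single-index batch had no test, and for them unchanged means the same sign only. The 638 include the WT region contrasts, where no value changed. No paired analysis was possible because the labels give the groups no shared replicate numbers. Libraries of P35 HC were the shallowest.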
